A study of Saccharomyces cerevisiae with 4 samples.

Results

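The windows described here are the stretches of 150 bp of the budding yeast nuclear genome that lost histone H3 signal under hydroxyurea and lie outside every region called by the authors as enriched in histone H3 phosphorylated at threonine 45 (H3T45p). They were chosen from measured values. A member has an untreated H3 signal of 140 or more, a hydroxyurea H3 signal at or below 0.6 times the untreated one, and no overlap with a called region of either treatment. Of 80474 nuclear windows on chromosomes 1 to 16, 62216 were eligible, meaning that they had the untreated signal and lay outside called regions, and 1651 of these were members. They covered 248 kb. The study used chromatin immunoprecipitation and sequencing of strain BY4741, a laboratory strain, grown to mid-log phase in rich medium. Libraries came from untreated cells and from cells kept in 200 mM hydroxyurea for 2 h, and DNA was recovered with an H3T45p antibody or with a pan-H3 antibody (raised to the C-terminal end). Each of the 4 combinations has 1 library, so no difference between treatments has a replicate check and no test was possible. In the titles the untreated libraries carry the number 2 and those in hydroxyurea the number 1, so treatment and any batch that the numbers mark cannot be told apart.

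Histone H3 is part of nearly every nucleosome, the spool on which DNA is wrapped, and a pan-H3 antibody recovers the DNA that H3 is bound to. Nucleosomes are taken off and put back where genes are transcribed and where replication forks pass. Hydroxyurea inhibits ribonucleotide reductase, the enzyme that makes deoxynucleotides, and so slows forks and switches on the replication checkpoint. Threonine 45 of H3 lies near the DNA entry and exit sites of the nucleosome, and Cdc7, the kinase that fires replication origins, can phosphorylate it. No input library was among the 4, so a lower H3 signal from less H3 on the DNA and one from fewer copies of that DNA cannot be told apart. No source used here names the build of the files. Windows are therefore given by chromosome and first base, counted from 1 in the coordinates as deposited, and were not assigned to genes.

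The libraries held 23588153 to 28690293 reads in windows, and every deposited value was a whole number of reads times 1 factor per library. A member had a median of 370 reads of untreated H3, 213 of hydroxyurea H3, 322 of untreated H3T45p and 236 of hydroxyurea H3T45p. Exact binomial (Clopper-Pearson) intervals at 95% from these reads cover counting error only. The members were chosen on the same reads, so an H3 ratio below 1 is fixed by the rule and the intervals show only how precisely it was counted. The highest upper limit of the hydroxyurea over untreated H3 ratio was 0.774, and for 407 members the upper limit was under the threshold of 0.6.

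By the rule, H3 was lower in every member. The median H3 signal was 364 in untreated cells (quartiles 234 and 572) and 193 in hydroxyurea (124 and 300). The median ratio was 0.553 and the lowest 0.268, with 371 members at 0.5 or less and 861 above 0.55, so most lay near the threshold. The members just inside it had ratios of 0.59999 (chromosome 12 from 660151), 0.59992 (chromosome 12 from 972751) and 0.59992 (chromosome 2 from 137251), and the windows just outside had 0.60001 (14701 on chromosome 13), 0.60015 (642301 on chromosome 15) and 0.60015 (1116601 on chromosome 4). At the minimum of 140, 3 members had an untreated signal of 140.81, and the nearest windows that failed this part alone had 139.82. The rule was met by 2.65% of eligible windows. The mirrored rule, with hydroxyurea H3 of 140 or more and untreated H3 at or below 0.6 times it, was met by 641 windows outside called regions, 1.03% of the 62324 that could have met it. With signals scaled to the total reads of each library the counts were 1250 lost and 965 gained, so losses made up 56.4% of both in place of 72.0%.

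H3T45p was measured in separate libraries and entered the choice only through the called regions. It was lower in hydroxyurea at most of these windows, but by less than H3, whose change the rule holds below its threshold. A smaller change in H3T45p than in H3 is therefore favoured by the choice. The median H3T45p signal of the members was 314 in untreated cells (quartiles 223 and 436) and 269 in hydroxyurea (183 and 409). On the log2 scale with 28.3 added to each signal, 10% of the genome median over the 4 libraries, the median H3T45p change was -0.20 (quartiles -0.41 and 0.02), against 0.05 (-0.17 and 0.28) in the other 60565 eligible windows. The H3 change that chose the members had medians of -0.77 and -0.02. H3T45p was below its untreated level in 1194 of 1651 members (72.3%), where 44.6% of all eligible windows were. It was lower by 0.5 or more in 272 members (16.5%), beside 4.39% of eligible windows, and higher by as much in 40 (2.42%), beside 8.89%. Summed over members, the hydroxyurea over untreated ratio was 0.536 for H3 (95% interval 0.534 to 0.538) and 0.911 for H3T45p (0.908 to 0.915). In the other eligible windows the same ratios were 0.976 and 1.11.

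**Figure D1:**
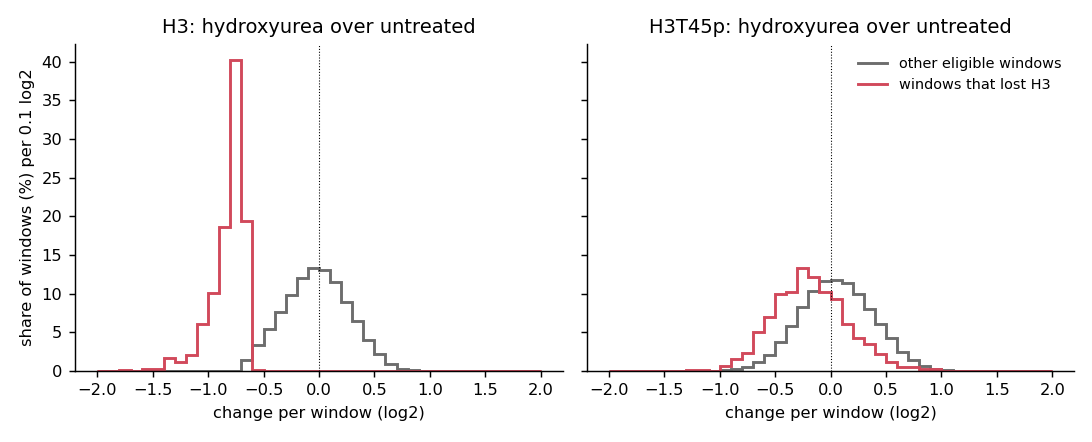
Share of windows, in percent, by change with hydroxyurea (log2, x axis) for H3 (left) and H3T45p (right), in the windows that lost H3 (red) and in the other eligible windows (grey), 1 library per antibody and treatment. The members are set apart in H3 by the rule, with a median of -0.77, while in H3T45p they overlap the other windows widely, with medians of -0.20 and 0.05.

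The same H3 rule was met by 255 windows inside called regions, 64.7% of the 394 called windows with an untreated H3 of 140 or more. In these H3 was 277 in untreated cells and 118 in hydroxyurea (medians), while H3T45p was 273 and 430, a median change of 0.55. The log2 ratio of H3T45p over H3 in hydroxyurea was at least 1.05 in all 255, so leaving out called regions removes windows with much H3T45p for their H3. With these windows kept, the median H3T45p change over 1906 windows was -0.15 in place of -0.20.

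The ratio of H3T45p over H3 holds the H3 values of the rule and is given as a description, on the scale of the deposited signals. Members stood below the other eligible windows in untreated cells and above them in hydroxyurea. The median log2 ratio was -0.23 in untreated cells and 0.36 in hydroxyurea, against -0.05 and 0.00 in the others. It was -0.5 or less in untreated cells in 330 members (19.99%), beside 7.01% of eligible windows, and 0.5 or more in hydroxyurea in 570 (34.5%), beside 2.86%. The change of the ratio was 0.5 or more in 1003 members (60.8%), where 11.4% of eligible windows had such a change. It was below 0 in 46 members (2.79%), beside 39.8% of eligible windows, and -0.5 or less in 1, beside 3.93%.

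Members were found at every level of untreated H3. They made up 2.61% of eligible windows with an untreated H3 under 280, 2.22% from 280 to under 420 and 3.03% from 420 on. The H3T45p change also differed between these classes in eligible windows at large, so it was compared within them. The median H3T45p change was -0.29 in the 578 members of the lowest class and -0.10 in the other eligible windows there. In the middle class it was -0.25 in 388 members and 0.04 in the others, and in the highest class -0.11 in 685 members and 0.21 in the others. The difference between members and others was -0.18, -0.28 and -0.32 from the lowest to the highest class. The median log2 ratio of H3T45p over H3 in untreated cells was -0.45 in the members of the highest class and -0.02 in those of the lowest. The other eligible windows differed in the same way between these classes, with -0.27 and 0.14.

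Losses of H3 were far more frequent in stretches where H3 was lower in general. For each eligible window the surroundings were taken as the other eligible windows, members left out, from 450 bp to 7.5 kb on each side, which 1638 members had in sufficient number. These come from the same libraries, so they are not a separate measurement. The median H3 change of the surroundings was -0.17 for members and -0.05 for other windows, and that of H3T45p -0.12 and 0.03. When eligible windows were split into 10 groups of equal size by the H3 change around them, members made up 8.27% of the group with the lowest surroundings, 4.59% of the second, 2.27% of the fifth and 0.113% of the group with the highest, which held 7 members. The lowest 3 groups held 1032 members (63.0%) and the highest 3 held 79. A window in low surroundings needs a smaller departure from them to meet the rule, and the median departure was -0.48 in the lowest group and -1.09 in the highest.

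Relative to the surroundings, the H3 change that chose the members had a median of -0.62, and the median H3T45p change was near 0. The median H3T45p change minus that of the surroundings was -0.07 (quartiles -0.25 and 0.11), and 0.00 (-0.17 and 0.16) in other eligible windows. By class of untreated H3 the members had -0.16, -0.12 and 0.02 from the lowest to the highest class and the other windows -0.13, -0.01 and 0.13. The difference between members and others was then -0.03, -0.11 and -0.11. Across the 10 groups the median H3T45p change of members was -0.29 in the lowest group, -0.10 in the fifth and 0.32 in the highest, beside -0.21, -0.02 and 0.40 in the surroundings. Their H3 change, which the rule holds below its threshold, had medians of -0.79 to -0.75 and cannot be set against this. Over all classes the difference in H3T45p between members and other eligible windows was -0.25, and after subtraction of the surroundings it was -0.07. In H3, by which the members were chosen, it was -0.75 and -0.62. Choice by the H3 libraries favours windows where chance spread lowers H3 and has no such hold on H3T45p, and its part was not tested.

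**Figure D2:**
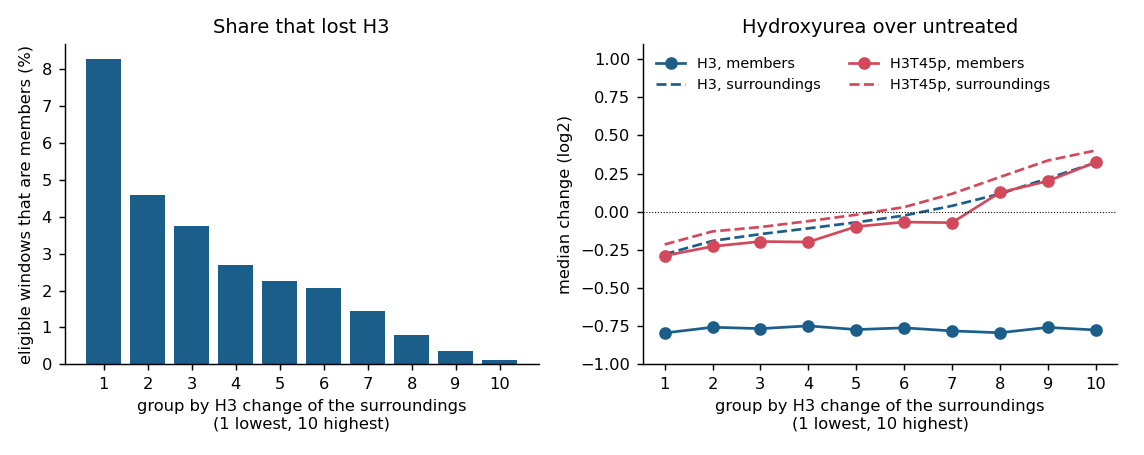
Eligible windows in 10 groups of equal size by the H3 change of their surroundings (x axis, 1 lowest to 10 highest), with the share that are members in percent (left) and median changes with hydroxyurea in log2 (right) for members (points) and surroundings (dashed), H3 in blue and H3T45p in red. The share runs from 8.27% to 0.113%, and the H3T45p change of members runs from -0.29 to 0.32 beside -0.21 to 0.40 in the surroundings. The level H3 line of members is set by the rule.

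The loss was graded over several windows beside the members. Mean H3 was 464 in members and 339 in the windows next to runs of members in untreated cells, and 249 and 231 in hydroxyurea. The median H3 change of eligible windows that were no members was -0.48 next to a run, -0.35 at 300 bp, -0.24 at 600 bp and -0.15 at 3 kb. That of H3T45p was -0.20, -0.18, -0.10 and -0.11 at the same distances. Sheared fragments can reach into neighbouring windows, so windows next to a run are not independent of it. Mean H3T45p within the members was 354 without and 323 with hydroxyurea, and at 3 kb from a run it was 304 and 291, beside H3 of 331 and 287.

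**Figure D3:**
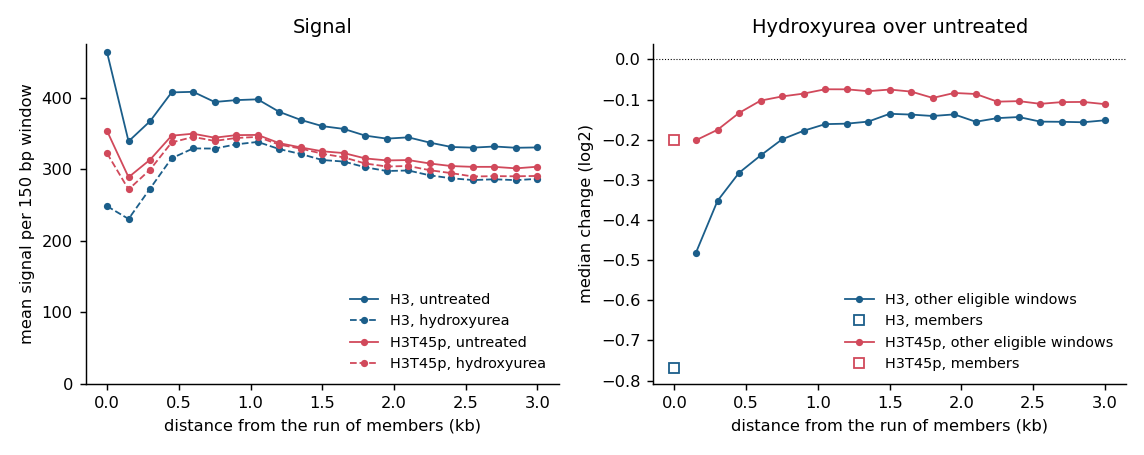
Left, mean signal per 150 bp window of each library by distance from runs of members in kb, both sides pooled, with members at 0. Right, median change with hydroxyurea (log2) in eligible windows that are no members by that distance, with the members as open squares. Untreated H3 stands highest in members, which the rule favours, since the means at other distances take all windows without a minimum. The H3 change narrows from -0.48 to -0.15 with distance while that of H3T45p goes from -0.20 to -0.11.

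Along the genome the members were uneven. They made up 5.78% of eligible windows on chromosome 12 (303 members), 3.38% on chromosome 4 (259) and 3.20% on chromosome 7 (180), and 0.928% on chromosome 3 (15), the lowest share. On chromosome 3 the mirrored rule was met by 30 windows. In bins of 50 kb, 10 of 248 bins had 10% or more of their eligible windows among the members. These 10 bins held 336 members (20.4%) on 3.86% of the eligible windows, and no window in them met the mirrored rule. That was frequent among all 248 bins, of which 139 held members and no window of the mirrored rule. Both kinds lay in 73 bins, and 33 held the mirrored kind alone. The 10 bins with 10% or more members included the 6 of chromosome 12 from 800001 to its end at 1078200. Further such bins were chromosome 4 from 1400001 to 1450000 (45 of 271 eligible windows) and chromosome 16 from 900001 to its end at 948150 (26 of 232). The last were chromosome 7 from 50001 to 100000 (32 of 278) and from 950001 to 1000000 (27 of 266). No member lay in 36 bins.

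The right part of chromosome 12 was the longest such stretch. From 800001 to 1078200, 206 of 1352 eligible windows were members (15.2%), against 97 of 3886 (2.50%) on the rest of the chromosome. The stretch was drawn from adjoining bins that were picked for their high share of members. A higher share inside it than outside is therefore set by the choice, and these shares are a description only. There the whole stretch was low in both antibodies. The windows that were no members had a median H3 change of -0.34 and H3T45p change of -0.36, and the members -0.81 and -0.41. H3T45p was below its untreated level in 193 of the 206 members (93.7%) and in 1066 of the 1146 other eligible windows there (93.0%), nearly the same share. Of the 272 members with H3T45p lower by 0.5 or more, 73 (26.8%) lay in this stretch, and of the 40 with H3T45p higher by as much, 0 did. Such a rise was rare in the stretch as a whole, with 2 of the 1146 other eligible windows (0.17%). Within the stretch a value lower by 0.5 or more was found in 35.4% of members and in 29.3% of the other eligible windows, so it was frequent in the stretch as a whole. Elsewhere the 1445 other members had a median H3T45p change of -0.17.

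Toward chromosome ends the share of members was 1.20% in the last 3 kb (2 of 167 eligible windows), 4.67% from 3 to 20 kb, 3.56% from 20 to 40 kb and 2.54% farther in. The median H3T45p change of members was 0.11 in the last 3 kb, from 2 members, -0.38 from 3 to 20 kb, -0.29 from 20 to 40 kb and -0.18 farther in. The change of the other eligible windows at these distances was not computed. Whether this order is particular to members was therefore not tested.

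Members often lay side by side. They formed 1112 runs of adjacent windows, of which 755 were 1 window long, 253 had 2 windows and 104 had 3 or more. Of the windows on each side of each member, eligible or not, 32.7% were members. The share was 2.65% among eligible windows and 2.05% among all nuclear windows. Fragments can reach into neighbouring windows, so adjacent members are not independent. The median untreated H3 was 302 in single windows, 397 in runs of 2, 414 in runs of 3 and 467 in runs of 4. In the few longer runs it varied without order, with 586 in runs of 5, 537 in runs of 6, 418 in the 1 run of 7 and 820 in the 2 of 8. The median H3T45p change was -0.20 in single windows, -0.21 in runs of 2 and -0.18 in runs of 3 or more. In 83 of the 104 runs of 3 or more the mean H3T45p signal was lower in hydroxyurea. Counted by window, it was lower in 74.1% of the members in such runs, beside 44.6% of eligible windows. The surroundings of these runs were low as well, with an H3T45p change below 0 around 82.8% of the members in them. Around eligible windows at large the share was 45.0%. Relative to the surroundings the median H3T45p change of these members was -0.03.

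The 12 runs described next are the 7 of 6 or more windows and, of the 10 runs of 5 windows, the 5 with the lowest H3 ratio, so they are chosen in part on the value of the rule. The longest runs were 1.2 kb and both lay on chromosome 4. From 1420051 to 1421250 the mean H3 signal was 685 in untreated cells and 320 in hydroxyurea, a ratio of 0.467 (95% interval 0.446 to 0.488), while H3T45p was 425 in both (ratio 1.00, 0.952 to 1.05). Within that run H3T45p was lower at the left edge, with 753 and 645 at 1420051, and higher at 1420651, with 482 and 657. From 1410301 to 1411500 H3 was 1173 and 599 (0.511) and H3T45p 664 and 648 (0.977, 0.939 to 1.02). This run held some of the highest H3 signals among the members, with 2111 in untreated cells and 1071 in hydroxyurea at 1410601, where H3T45p was 1074 and 1073. A further run from 1411651 to 1412550 had H3 of 544 and 310 and H3T45p of 380 and 312 (0.821, 0.770 to 0.875). In these 3 runs untreated H3T45p stood well under untreated H3, and in hydroxyurea both signals met or H3T45p was higher.

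Around the 3 runs of chromosome 4 the H3T45p change of the surroundings was -0.33 to -0.27. Around the 4 runs of chromosome 12 it was -0.40 to -0.31. Within the runs of chromosome 12 both signals were lower. From 877201 to 878250 H3 was 570 and 208 (0.364, 0.343 to 0.386), and H3T45p 363 and 288 (0.791, 0.744 to 0.841). From 902551 to 903450 H3 was 520 and 224 (0.430) and H3T45p 426 and 275 (0.645, 0.604 to 0.688). From 986851 to 987600 H3 was 484 and 250 (0.517) and H3T45p 372 and 261 (0.701, 0.651 to 0.755). The run from 871201 to 871950, with the most H3 of the 4, differed in that H3T45p was 613 and 586 (0.957, 0.909 to 1.01) beside H3 of 1111 and 575 (0.517).

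The other 5 of the 12 runs lay on chromosomes 16, 1, 7, 14 and 8. On chromosome 16 from 899551 to 900450 H3 was 1277 and 672 and H3T45p 669 and 613, so here H3T45p stayed under H3 in hydroxyurea too. On chromosome 1 from 34201 to 35100 H3 was 628 and 338 and H3T45p 429 and 400, and on chromosome 8 from 498451 to 499200 H3 was 805 and 411 and H3T45p 448 and 414. On chromosome 14 from 31051 to 31800 H3 was 642 and 300 and H3T45p 412 and 311. The run on chromosome 7 from 165451 to 166200 borders a called region, and H3 was 365 and 171 there and H3T45p 317 and 278. It was the only one of the 12 whose surroundings were not lower in H3, at 0.04, where the others had -0.39 to -0.15.

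**Figure D4:**
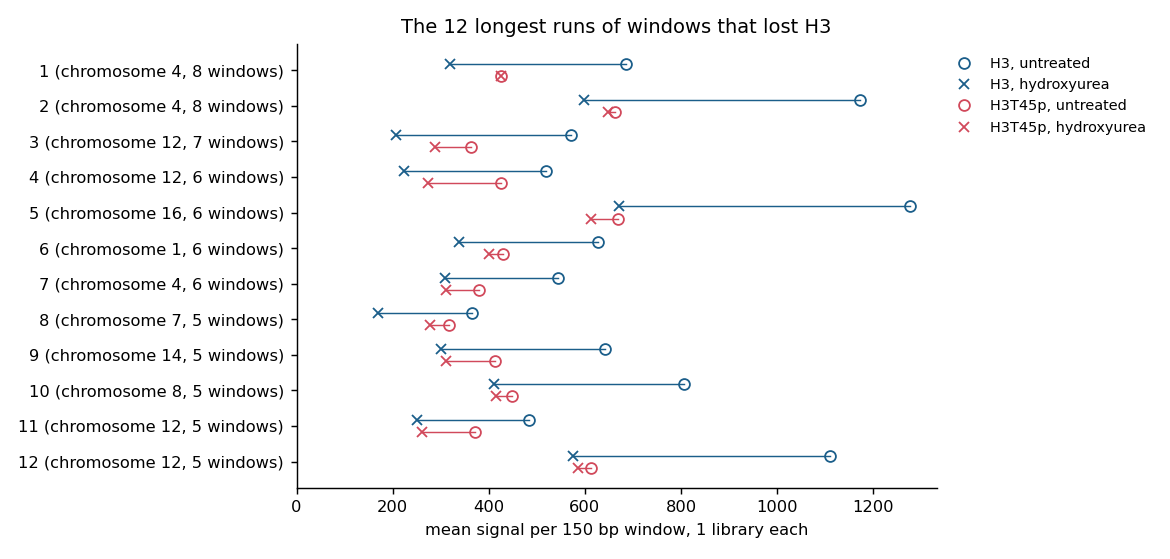
Mean signal per 150 bp window (x axis) in the 12 longest runs, ordered by length and then by H3 ratio (5 further runs of 5 windows, with higher H3 ratios, are left out), with H3 in blue and H3T45p in red, circles for untreated cells and crosses for hydroxyurea, 1 library each. H3 is lower in hydroxyurea in each run, by the rule, with ratios of 0.364 to 0.569, while the H3T45p ratios range from 0.645 to 1.00.

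Among single windows the lowest H3 ratio was at chromosome 12 from 877951, inside the run above, where H3 was 742 in untreated cells and 199 in hydroxyurea (0.268, 0.230 to 0.312) and H3T45p 343 and 291. The next were chromosome 2 from 704251, with H3 of 244 and 67.1 and H3T45p of 167 and 110, and chromosome 11 from 229951, with H3 of 239 and 67.1 and H3T45p of 226 and 143. A pair of neighbours on chromosome 13 from 914851 and 915001 had H3 ratios of 0.304 and 0.311 and H3T45p ratios of 0.747 and 0.498. The other 5 of the 10 lowest began at 645301 (0.316) and 566551 (0.317) on chromosome 12, at 132451 on chromosome 16 (0.324), at 1420651 on chromosome 4 (0.324) and at 166051 on chromosome 7 (0.326). In the last 3 of these H3T45p was higher in hydroxyurea, with ratios of 1.09 (0.881 to 1.34), 1.36 (1.21 to 1.54) and 1.17 (0.942 to 1.46), and in the other 7 it was lower. Of the 10 windows, chosen on the value of the rule, 5 lay within 3 windows of a called region. Farther away than that lay 1312 of all 1651 members and 58494 of the 60565 other eligible windows.

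Members differed among themselves in H3T45p. The interval of the H3T45p ratio lay wholly below 1 in 771 members (46.7%), beside 19.9% of eligible windows, and wholly above 1 in 203 (12.3%), beside 32.5%. It held 1 in 677. The highest change was 0.99 at chromosome 4 from 955501, which borders a called region, with H3T45p of 111 in untreated cells and 248 in hydroxyurea beside H3 of 210 and 124. The next was 0.93 on chromosome 10 from 360451, where H3T45p was 620 and 1211 and H3 1557 and 825. On chromosome 8 from 98401 the change was 0.93 (451 and 883) and on chromosome 15 from 462301 it was 0.83 (390 and 717). A change of 0.83 on chromosome 7 from 271651 went with H3T45p of 719 and 1295 and H3 of 1651 and 666. Untreated H3T45p was under untreated H3 in each of these 5. The lowest change was -1.29 at chromosome 4 from 78001, where H3T45p was 205 and 67.1 and H3 172 and 101. The next lay on chromosome 12 from 902701 (-1.12, 221 and 86.5), 1001851 (-0.99, 184 and 78.5) and 1042951 (-0.97, 159 and 67.1) and on chromosome 7 from 958951 (-0.96, 277 and 129). In these 5 windows untreated H3T45p was above untreated H3, the reverse of the order at the top. Since members were taken from the ends of the H3T45p change, these orders are favoured by the choice.

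Members were frequent beside called regions. Of the 634 eligible windows next to a called region 187 were members (29.5%), of those 1 window farther 11.8%, of the third 5.49% and of those 4 to 6 windows away 2.36%. More than 33 windows away the share was 2.32%, and 899 members (54.5%) lay there. The members next to a called region had a median H3T45p change of 0.02 and a median log2 ratio of H3T45p over H3 of 0.82 in hydroxyurea and -0.13 in untreated cells. Members over 3 windows away, 1312 in all, had an H3T45p change of -0.22 and ratios of 0.31 and -0.24. The other eligible windows next to called regions had an H3T45p change of 0.19, an H3 change of -0.27 and ratios of 0.47 and -0.04. Over 3 windows away the others had an H3T45p change of 0.05, an H3 change of -0.01 and ratios of 0.002 and -0.05. Higher H3T45p values beside called regions were thus not particular to members. Summed over members, the H3T45p ratio was 1.05 (1.04 to 1.06) next to called regions and 0.887 (0.883 to 0.891) over 3 windows away, and the H3 ratio 0.501 and 0.541. What the region call used is not known here, and fragments can reach from called regions into the windows beside them, so these shares are a description.

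**Figure D5:**
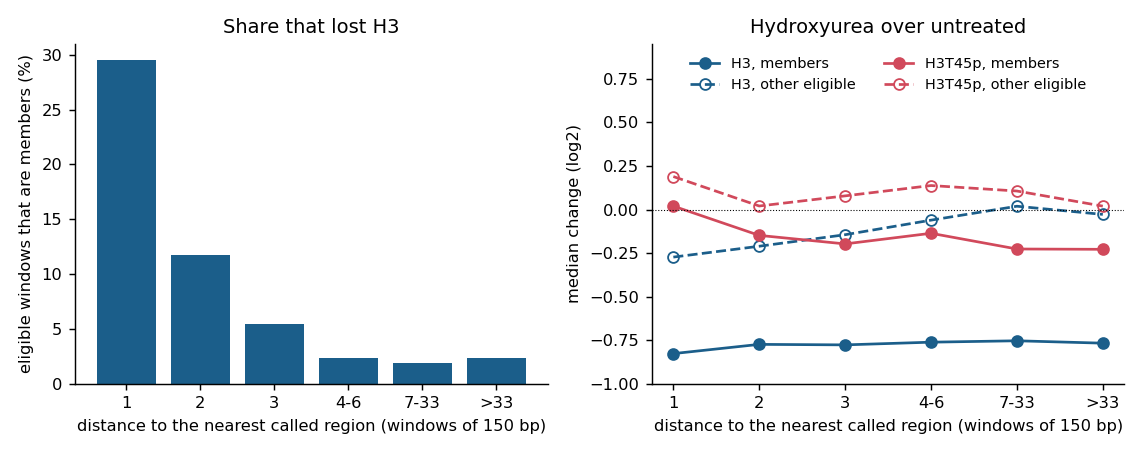
Eligible windows by distance to the nearest called region in windows of 150 bp (x axis), with the share that are members in percent (left) and median changes with hydroxyurea in log2 (right), filled points for members and open points for other eligible windows, H3 in blue and H3T45p in red. The share is 29.5% next to called regions and 2.32% beyond 33 windows. The H3T45p change of members goes from 0.02 to -0.23, and that of the other eligible windows from 0.19 to 0.02.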

How the data were processed

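The authors deposited for each of 4 libraries a signal per window of 150 bp, and for each H3T45p library a list of called regions with positions only. Divided by the lowest value other than 0 of its library, each deposited signal came out whole (100% of values, within 0.001 of a read), so it is a read count scaled by 1 factor per library. The submitters' processing notes list DESeq and BWA 0.5.9-r16 with no role. For the build and the rule of the region call, no statement was found among the labels and headers. The members, classes, surroundings and lists were chosen with earlier results of these data known, and the bins, distances to called regions, surroundings and the stretch of chromosome 12 were chosen after the values had been seen. Changes are log2 differences of signal plus the pseudocount, called at 0.5 (1.41-fold). With 1 library per group neither a count model nor another test was run. The surroundings are the median change of at least 20 eligible windows, 3 to 50 windows away on each side. Intervals of read ratios are exact binomial ones at 95% and cover counting error only. Those used to compare alternative settings, given no limits here, were taken over windows. The authors' deposited tracks of H3T45p minus H3 were not used. Named are the 12 longest runs, the 10 lowest H3 ratios, the 5 highest and 5 lowest H3T45p changes and the 3 windows on each side of a threshold. Gene lists, genes and sequence were not analysed here, since they need a genome of the files' build. The steps were tested on simulated data and run in Python 3.11.15 with numpy 2.4.6, pandas 2.3.3 and scipy 1.17.1.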

Additional observations from a re-analysis of the deposited data

How the results depend on the processing

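No paired analysis was possible because each group has 1 library and the treatments share no number. The H3T45p change at members kept its sign under its 15 alternatives and its value minus surroundings under 8, while the sign of the H3 change is fixed by the rule, that of the ratio is favoured by it, and counts and shares have none. Of all 84 alternatives 43 left the value within its interval (or a count within 1.5 times) and 41 did not. The cause of the shifts was not tested where the setting itself does not give it. An H3 ratio of 0.5 or less left 371 members in 269 runs, with medians of -1.003 for the H3 change, -0.18 for H3T45p and 0.88 for their ratio, and 4.14% of eligible windows on the right stretch of chromosome 12. A ratio of 0.7 gave 5390 members in 3026 runs, with -0.59, -0.18 and 0.44, 36.8% on that stretch, and 59.1% of members in the lowest 3 of 10 groups by surrounding H3. An untreated H3 of 280 or more left 1073 members, with -0.79, -0.16 and 0.67. With called regions kept the medians were -0.79, -0.15 and 0.68, the H3T45p change minus surroundings -0.029 and the share in the lowest 3 groups 58.4%. With called regions widened by 300 bp the H3T45p change was -0.22 and that of the ratio 0.57. Scaling to total reads shifted the median H3T45p change of all eligible windows by -0.12 and gave -0.32 and 0.49 for members, while members minus others stayed at -0.25 for H3T45p. A pseudocount of 50% of the median gave -0.57, -0.14 and 0.44 and none gave -0.85, -0.22 and 0.68. Relative to the median of eligible windows they were -0.74, -0.25 and 0.53. Members in runs of 2 or more had an H3 change of -0.81 and a ratio change of 0.66, and windows of 450 bp gave -0.67 and 0.51. Without the right stretch of chromosome 12 (from 800001) the H3T45p change was -0.17. Surroundings from 1.5 kb on put 59.3% of members in the lowest 3 groups. The alternatives that concern surroundings and chromosome 12 were chosen after seeing the data. Depth leaves the H3 ratio of single members uncertain near the threshold, repeated sequence cannot be told from the files, and with 1 library per group the spread between cultures is unknown.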
